A study of Mus musculus with 21 samples.

Results

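The 10 genes described here form the core of the mammalian circadian clock: the period genes Per1, Per2 and Per3, the cryptochromes Cry1 and Cry2, the activators Arntl (also called Bmal1) and Clock, and the clock-controlled transcription factors Dbp, Nr1d1 and Nr1d2. They were taken by name from the deposited gene table, in which all 10 were present among 16318 genes, and all 10 passed the filter on low counts. RNA-seq was performed on brain RNA from 21 SAMP8 mice, a senescence-accelerated inbred line, with 1 library per mouse. All mice were 6 months old at collection, were injected subcutaneously on alternate days for 8 weeks, and lived in a reversed cycle of 12 h of light with lights on at 7 PM. The 12 PBS-treated mice (6 female, 6 male) received phosphate-buffered saline, and the 9 HsTX1[R14A]-treated mice (3 female, 6 male) received 1 mg/kg of a peptide that blocks the potassium channel Kv1.3. Both were injected at about 8 PM, shortly after lights on. The hour at which each brain was taken is not given in the sources used here, so a difference in collection time between the groups could not be tested directly.

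The clock is a transcriptional loop in which ARNTL and CLOCK pair on E-box elements and switch on the Per and Cry genes, whose proteins return to the nucleus and restrain that pair. A second loop joins it, in which NR1D1 and NR1D2 (REV-ERB alpha and beta) repress Arntl, and DBP drives genes with D-box elements. In tissues that keep time, Arntl peaks in roughly the opposite phase to Dbp, Nr1d1 and the Per genes, and in the brain Per1 and Per2 also respond to neuronal activity.

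In HsTX1[R14A]-treated brains, Per1, Per2, Per3 and Cry2 rose, by 1.81-, 1.97-, 1.45- and 1.41-fold, and the other 6 clock genes did not pass the test. Thus 4 of the 10 were called, all higher, where 31.6% of the 16303 genes tested were called in either direction, 15.5% higher and 16.1% lower (edgeR's quasi-likelihood test with sex in the model, Benjamini-Hochberg adjusted p of at most 0.05). The log2 fold change was above 0 for 9 of the 10, with a median of 0.35 over the 10 and of -0.01 over all genes. Arntl and Clock, the positive limb, had log2 fold changes of 0.10 and 0.01. All 4 calls were lost when the length slope of each library, described below, was added to the model. Neither form of library name gave a call on its own. In bulk tissue, more cells that express a gene and more RNA per cell cannot be told apart.

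The promoters of the called genes and of the members with a clock motif are shown so that the elements can be seen beside the changes. Sequence of the 250 bases before the start site was taken from RefSeq (GRCm38.p6) for 9 of the 10 genes, 13 windows in all, and Per2 had no entry. Capitals mark matches on either strand to the E-box CACGTG, the E'-box CACGTT, the D-box TTATGTAA, the core of the ROR element TAGGTCA or the cyclic AMP response element TGACGTCA. A match is a description and not a shown binding site.
Per1, chr11:69098699-69098948, plus strand: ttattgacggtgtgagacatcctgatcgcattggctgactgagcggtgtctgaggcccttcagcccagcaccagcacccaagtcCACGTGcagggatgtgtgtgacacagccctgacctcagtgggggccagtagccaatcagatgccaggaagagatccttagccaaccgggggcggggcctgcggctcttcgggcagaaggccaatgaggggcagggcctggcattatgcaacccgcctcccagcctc
Per3, chr4:151044666-151044915, minus strand: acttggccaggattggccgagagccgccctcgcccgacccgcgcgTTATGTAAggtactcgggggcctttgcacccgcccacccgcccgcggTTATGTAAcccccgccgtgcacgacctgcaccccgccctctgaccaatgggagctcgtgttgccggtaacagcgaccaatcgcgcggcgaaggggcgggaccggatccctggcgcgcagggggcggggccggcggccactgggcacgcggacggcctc
Cry2, chr2:92434070-92434319, minus strand: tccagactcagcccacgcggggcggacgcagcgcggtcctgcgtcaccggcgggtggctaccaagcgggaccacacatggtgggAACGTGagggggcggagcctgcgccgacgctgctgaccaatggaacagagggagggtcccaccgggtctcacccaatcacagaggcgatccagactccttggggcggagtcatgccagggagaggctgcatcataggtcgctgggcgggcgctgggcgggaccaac
Cry1, chr10:85185055-85185304, minus strand: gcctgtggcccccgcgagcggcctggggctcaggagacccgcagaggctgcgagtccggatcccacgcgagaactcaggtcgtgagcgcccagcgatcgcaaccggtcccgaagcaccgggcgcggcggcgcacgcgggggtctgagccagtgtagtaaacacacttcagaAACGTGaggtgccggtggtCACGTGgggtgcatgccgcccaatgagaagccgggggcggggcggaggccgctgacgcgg
Nr1d1, chr11:98775378-98775627, minus strand: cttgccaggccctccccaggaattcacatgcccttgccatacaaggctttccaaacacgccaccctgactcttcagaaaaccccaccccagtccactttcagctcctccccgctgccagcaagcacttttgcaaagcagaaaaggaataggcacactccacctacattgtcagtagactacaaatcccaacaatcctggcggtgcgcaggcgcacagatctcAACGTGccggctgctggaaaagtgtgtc
Counted upstream from the start site, the Per1 window held an E-box that begins 166 bases before it. Per3 held D-boxes at 205 and 158 bases and Cry2 an E'-box at 166 bases. Among genes that were not called, Cry1 held an E-box at 60 and an E'-box at 79 bases, and Nr1d1 an E'-box at 28 bases. The windows of Arntl, Clock, Dbp and Nr1d2 and the other window of Per1 held none of these letters. Of 32851 promoter windows of the same length, 6.02% held the E-box, 3.85% the E'-box, 0.819% the D-box, 2.23% the ROR core and 1.55% the cyclic AMP element.

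Library totals ran from 14917174 to 47613792 estimated counts, and the lowest count of any clock gene in any mouse was 153, for Per2. Levels are given as CPM, counts divided by the library's TMM-scaled total. Xist was at least 261 CPM in females and at most 3.39 CPM in males, matching the labelled sexes. Although the tissue was described as whole brain, the cerebellar granule cell gene Gabra6 had a median of only 0.127 CPM in PBS and 0.548 CPM in HsTX1[R14A] mice. The summed level of 8 cerebellar markers was 908.9 CPM in HsTX1[R14A] male 74 and 204.1 to 456.3 CPM in the other 20 mice. Without male 74, the same number of clock genes, 4, was called. A length slope was computed for every library. It is the change of gene-centered log2 CPM per doubling of transcript length, and was -0.076 ± 0.161 (SD, n = 12) in PBS and 0.102 ± 0.119 (SD, n = 9) in HsTX1[R14A] mice.

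Levels between genes were compared per kilobase of the longest transcript, in PBS mice. Nr1d2 and Dbp had the highest means, at 26.4 ± 4.25 and 26.2 ± 4.01 CPM per kilobase (SD, n = 12), and did not differ beyond their spread. Cry2 (18.7 ± 4.54) and Nr1d1 (15.6 ± 4.85) followed by mean, also within their spread, and then Clock at 11.3 ± 0.873. Single mice crossed this order: Cry2 reached 25.0 where Dbp fell to 19.5, and Nr1d1 fell to 4.93 where the lowest Clock value was 9.98. Per1 (6.81 ± 3.02), Arntl (6.71 ± 1.25) and Cry1 (6.60 ± 0.867) could not be ordered. Per3 (3.74 ± 1.12) and Per2 (3.31 ± 1.41) had the lowest means and overlapped too, with each other and with Per1, which fell to 2.39.

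The genes also differed in how much they varied between mice. Over the 21 mice, the highest Per1 level was 8.44 times the lowest, and the same ratio was 7.69 for Nr1d1, 7.05 for Per2, 3.85 for Per3 and 3.18 for Cry2. It was 2.25 for Arntl, 2.02 for Dbp, 1.77 for Cry1, 1.60 for Nr1d2 and 1.30 for Clock. With group differences removed, the SD of log2 CPM of Per1 exceeded that of 97.5% of the genes within 0.5 log2 units of its level. Nr1d1 stood at 96.9% and Per2 at 93.3% on this scale, while Clock, at 12.3%, was steadier than most genes of its level.

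**Figure D1:**
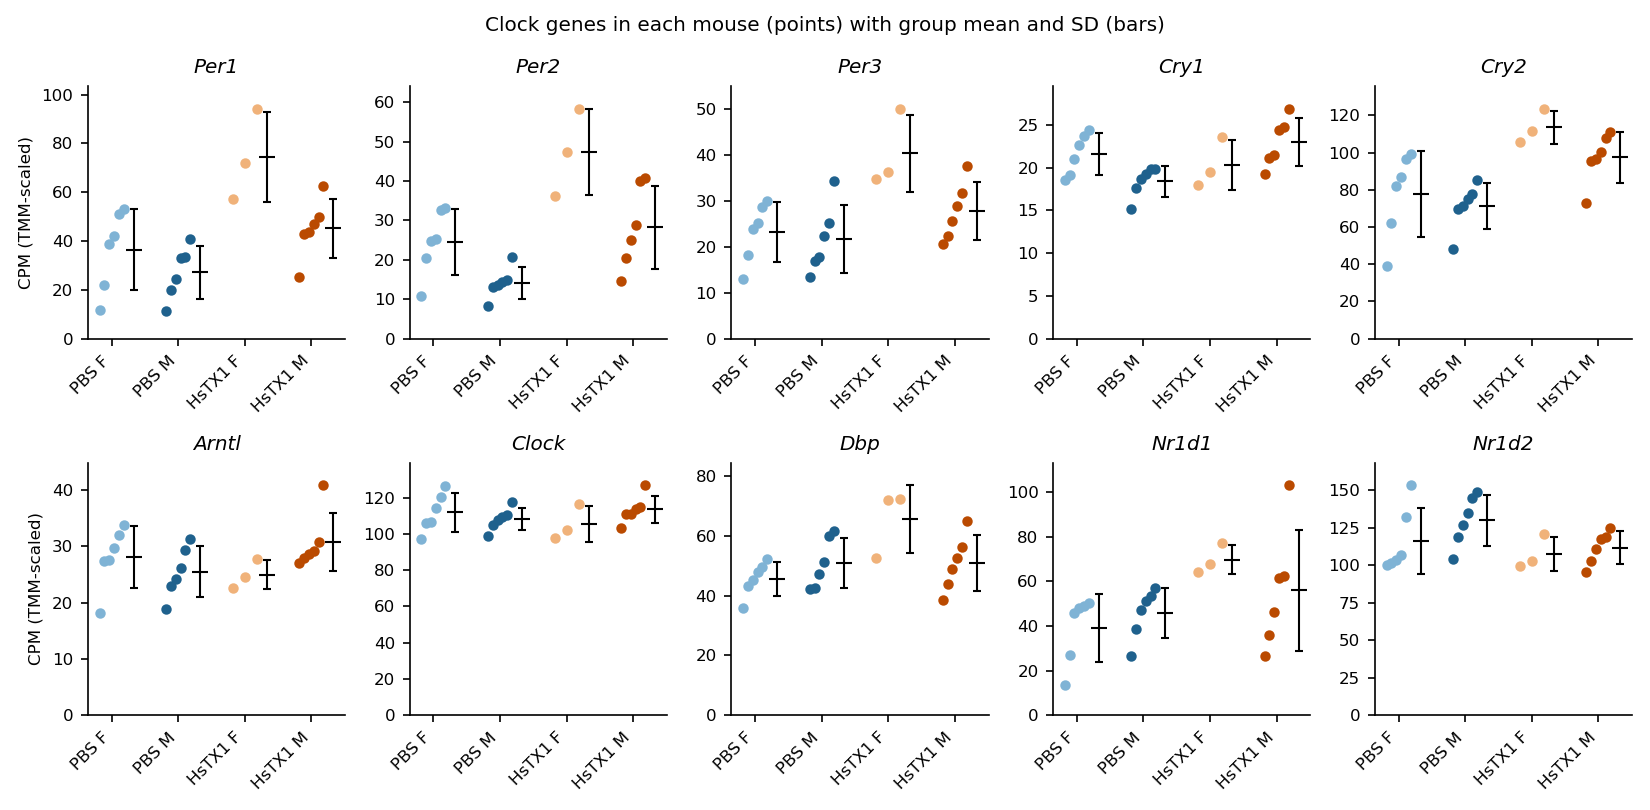
TMM-scaled CPM of the 10 clock genes in each mouse (1 point per mouse, groups by treatment and sex on the x axis, CPM from 0 on the y axis), with the mean and SD of each group as bars beside the points. The 3 HsTX1[R14A] females lie above all 6 PBS females for Per1, Per2, Per3, Cry2, Dbp and Nr1d1, and Clock hardly spreads.

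The period genes encode the repressors whose slow build-up sets the pace of the loop. Per1 (ENSMUSG00000020893, chromosome 11, 69095217 to 69109960 in GRCm38) ran from 11.2 to 53.3 CPM in PBS mice with a median of 33.3. In HsTX1[R14A] mice it ran from 25.2 to 94.1 CPM with a median of 50.0. The ranges overlapped, but 8 of the 9 treated brains exceeded the PBS median, and the lowest values belonged to PBS male 90 and PBS female 103 (11.6 CPM). The mean was 31.8 ± 14.1 CPM (SD, n = 12) against 55.0 ± 19.8 CPM (SD, n = 9), a log2 fold change of 0.85 (standard error 0.24, edgeR adjusted p = 0.0196).

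Per2 (ENSMUSG00000055866, chromosome 1, 91415982 to 91459324), the period gene whose loss most disturbs the rhythm of mice, showed the largest log2 fold change of the 10. Its level in PBS mice was 8.27 CPM at the lowest, 17.7 at the median and 33.1 at the highest. In HsTX1[R14A] mice these values were 14.5, 36.3 and 58.3 CPM. Again 8 of 9 treated mice exceeded the PBS median, and the exception was male 93. The mean moved from 19.3 ± 8.24 CPM (SD, n = 12) to 34.6 ± 13.8 CPM (SD, n = 9), a log2 fold change of 0.98 (standard error 0.20, edgeR adjusted p = 0.0151).

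Per3 (ENSMUSG00000028957, chromosome 4, 151003652 to 151044665), which is dispensable for the core rhythm, lies inside Camta1 on the same strand over 41014 bases, so its counts are less certain. It measured 12.99 to 34.4 CPM in PBS mice (median 23.1) and 20.5 to 50.0 CPM in HsTX1[R14A] mice (median 31.8), with 7 of 9 above the PBS median. The log2 fold change was 0.54 (standard error 0.17, edgeR adjusted p = 0.0262). This call was the least secure of the 4: it was lost without HsTX1[R14A] female 98 (edgeR adjusted p = 0.0644) and without PBS male 90 (0.0508). It was also lost with the name form as covariate (edgeR adjusted p = 0.0512) and with 1 surrogate variable (0.156), where the other 3 genes were called.

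Cryptochromes are the partners of the PER proteins and the stronger repressors of the pair. Cry2 (ENSMUSG00000068742, chromosome 2, 92403646 to 92434043) shares 23417 bases with D930015M05Rik on the opposite strand. How strand was kept is uncertain, as described below for Dbp. Cry2 measured 38.8 to 99.3 CPM in PBS mice with a median of 76.2. HsTX1[R14A] mice had 72.8 to 123 CPM with a median of 106. Among the treated mice, male 93 alone lay below the PBS median, and its value was below that of 7 PBS mice. The means were 74.4 ± 18.05 CPM (SD, n = 12) and 103 ± 14.2 CPM (SD, n = 9), a log2 fold change of 0.49 (standard error 0.13, edgeR adjusted p = 0.0186).

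Cry1 (ENSMUSG00000020038, chromosome 10, 85131700 to 85185064) had a log2 fold change of only 0.16 (standard error 0.09, edgeR adjusted p = 0.156). Its values overlapped nearly throughout, at 15.2 to 24.4 CPM in PBS (median 19.6) and 17.9 to 26.9 CPM in HsTX1[R14A] mice (median 21.5). A direct test of Cry2 against Cry1 was not run, and a call for one paralog does not show that the other responded less.

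The activators stayed near their PBS levels. Arntl (ENSMUSG00000055116, chromosome 7, 113207465 to 113314126) measured 18.2, 27.5 and 33.8 CPM in PBS mice and 22.7, 28.003 and 40.8 CPM in HsTX1[R14A] mice (lowest, median and highest). Its log2 fold change was 0.10 (standard error 0.12, edgeR adjusted p = 0.537), and 6 of 9 treated mice were above the PBS median. The highest value, 40.8 CPM in HsTX1[R14A] male 81, stood apart from the next male at 30.8 CPM. Arntl shares 2394 bases with Gm45355 on the opposite strand. Clock (ENSMUSG00000029238, chromosome 5, 76209868 to 76304792), the DNA-binding partner of ARNTL and the closest to constant of the 10, measured 97.2, 109 and 127 CPM in PBS mice. It measured 97.4, 111 and 127 CPM in HsTX1[R14A] mice. The log2 fold change was 0.01 with a standard error of 0.06 (edgeR adjusted p = 0.942), and its sign changed between settings.

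Dbp (ENSMUSG00000059824, chromosome 7, 45705088 to 45710203), a direct output of the loop and in many tissues among its most rhythmic transcripts, ran from 35.9 to 61.5 CPM in PBS mice (median 47.5). It ran from 38.5 to 72.3 CPM in HsTX1[R14A] mice (median 52.7), with 7 of 9 above the PBS median. The log2 fold change, 0.21 (standard error 0.11), did not pass the test (edgeR adjusted p = 0.137). Dbp shares 737 bases with Sphk2 on the opposite strand. The methods of the study name a directional kit and the labels another kit, so how strand was kept is uncertain.

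Nr1d1 (ENSMUSG00000020889, chromosome 11, 98767932 to 98775333), which encodes REV-ERB alpha, varied almost as widely as Per1. In PBS mice it ran from 13.4 CPM in female 103 to 56.9 CPM, with a median of 47.5. In HsTX1[R14A] mice it ran from 26.6 CPM in male 93 to 103 CPM in male 81, with a median of 62.6. The log2 fold change of 0.51 was close to that of Per3 but its standard error was 0.23 (edgeR adjusted p = 0.0862), and without HsTX1[R14A] male 93 it passed (edgeR adjusted p = 0.0316). Nr1d1 overlaps Thra by 1075 bases on the opposite strand.

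Nr1d2 (ENSMUSG00000021775, chromosome 14, 18204054 to 18239127), the REV-ERB beta gene, was the one member with a negative log2 fold change, -0.17 (standard error 0.09, edgeR adjusted p = 0.119). PBS mice ran from 100.1 to 153 CPM with a median of 123, and HsTX1[R14A] mice from 95.5 to 125 CPM with a median of 111. Only 1 of the 9 HsTX1[R14A] mice exceeded the PBS median. The highest values, 153 and 149 CPM, were those of PBS female 73 and PBS male 90, in which Per1 was 22.1 and 11.2 CPM, below its PBS median.

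**Figure D2:**
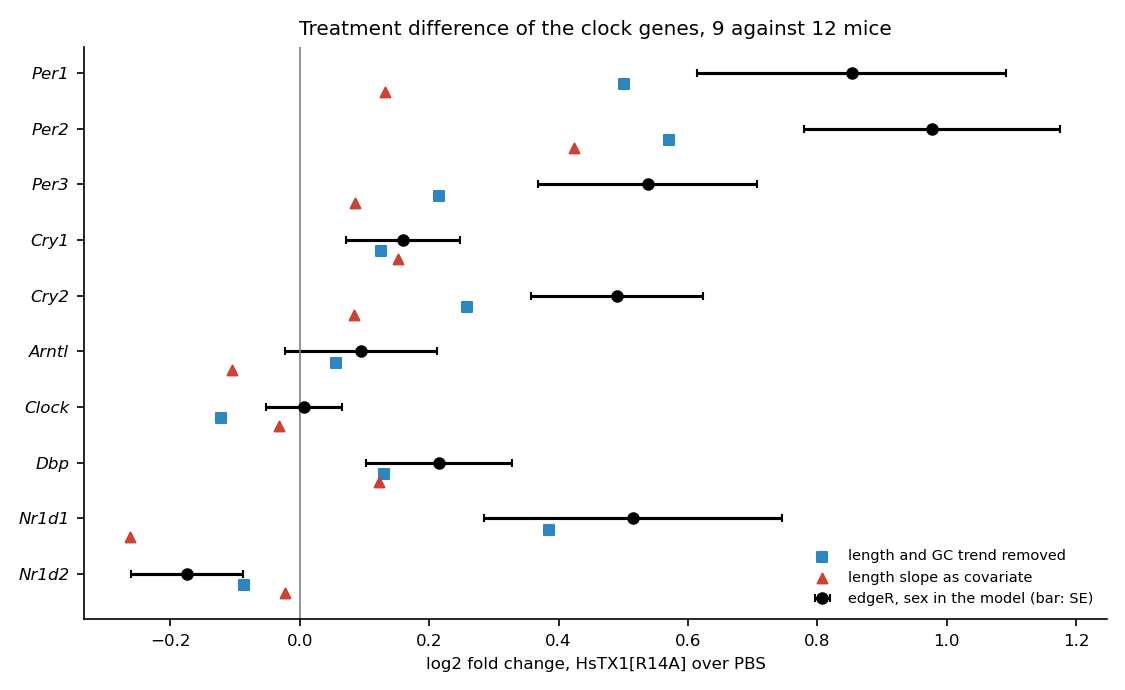
Log2 fold change of each clock gene, HsTX1[R14A] over PBS (x axis, 9 against 12 mice), from edgeR with sex in the model (black points, bars are 1 standard error), with each library's trend on length and GC content removed (blue squares) and with the length slope as a covariate (red triangles). Per1 moves from 0.85 to 0.50 and 0.13, and Per2 from 0.98 to 0.57 and 0.42.

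The length slope of the library moved with several clock genes inside each group. Among the 12 PBS mice, Cry2 rose with the slope at Pearson r = 0.958 (p = 1e-05, the smallest p the permutations can give, adjusted p = 0.0001) and Spearman rho = 0.923 (p = 7e-05, adjusted p = 0.0007). Per1 followed it at r = 0.953 (p = 3e-05, adjusted p = 0.00015) and rho = 0.867 (p = 0.00058, adjusted p = 0.0029). These are permutation tests with 100000 resamples, two-sided and adjusted over the 10 genes. Females and males were pooled, here and in the treated mice. Without the 2 mice of most extreme slope, r was 0.882 for Cry2 and 0.869 for Per1. Nr1d1 (r = 0.855), Per3 (0.833), Per2 (0.753) and Arntl (0.619) had adjusted permutation p-values from 0.00133 to 0.0456 in PBS mice, and their rho, from 0.664 to 0.713, adjusted permutation p-values from 0.0246 to 0.031. Nr1d2 ran the other way, at r = -0.682 (permutation p = 0.0135, adjusted p = 0.0225) and rho = -0.699 (p = 0.0135, adjusted p = 0.0246). For Arntl the relation rested on the extreme mice, with r = 0.268 without them. Dbp and Cry1 had r of 0.001 and 0.181.

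In the 9 HsTX1[R14A] mice 5 of these 7 genes followed the slope, with r = 0.936 for Cry2, 0.933 for Nr1d1, 0.912 for Per2, 0.897 for Per1 and 0.838 for Per3. In the exact permutation test the adjusted p-values of these 5 were at most 0.00871 for r and at most 0.0428 for rho, which ran from 0.767 to 0.950. Arntl (r = 0.076) and Nr1d2 (r = -0.321) did not pass in treated mice. Clock, whose transcript of 9744 bases is the longest of the 10, had r = 0.492 in PBS and -0.286 in HsTX1[R14A] mice, neither called. Across the 10 genes, which are not independent replicates, the log2 fold change had a Spearman rho of 0.103 with transcript length and of 0.673 with the GC content of the transcript. With the slope in the model, no gene of any kind was called, and the clock genes had log2 fold changes of 0.13 for Per1, 0.42 for Per2, 0.09 for Per3 and 0.08 for Cry2 (edgeR adjusted p from 0.344 to 0.825). With each library's trend on length and GC content removed, Per1 (0.50), Per2 (0.57) and Cry2 (0.26) remained called and Per3 (0.21) did not (limma adjusted p = 0.0245, 0.0161, 0.0219 and 0.152). Without PBS female 103 and PBS male 90, the libraries of lowest slope, all 4 calls held, with log2 fold changes of 0.69, 0.85, 0.43 and 0.39 for Per1, Per2, Per3 and Cry2 (edgeR adjusted p from 0.0215 to 0.0462).

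**Figure D3:**
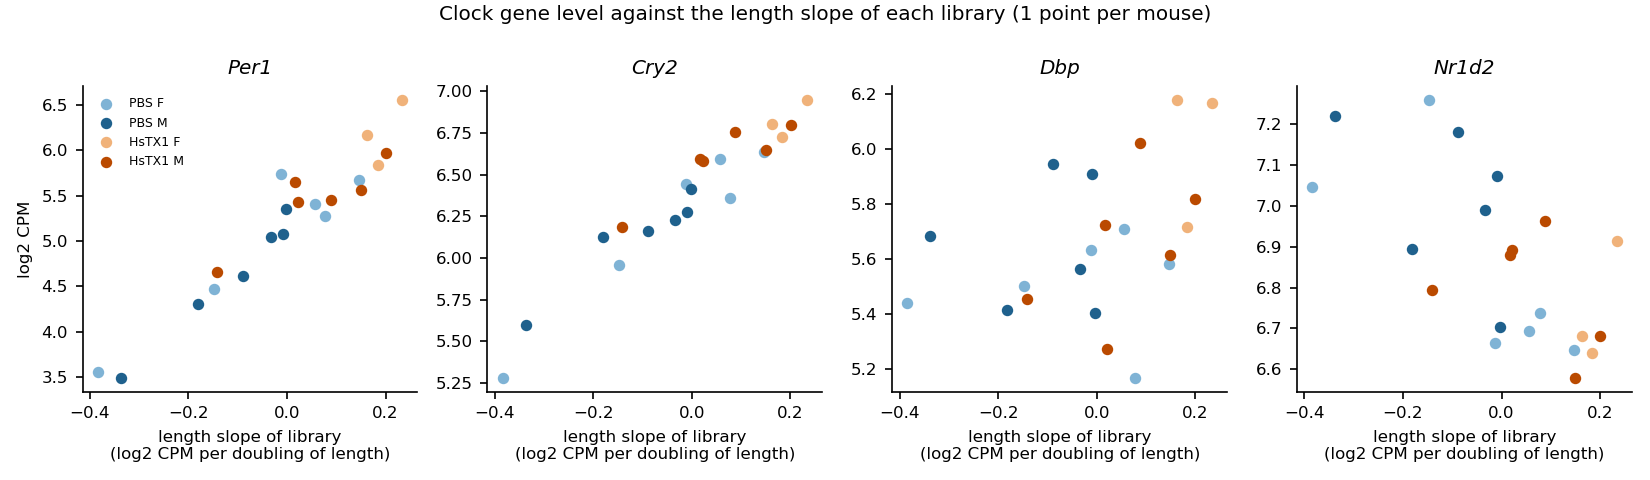
Log2 CPM of Per1, Cry2, Dbp and Nr1d2 (y axes) against the length slope of each library (x axis, log2 CPM per doubling of transcript length), 1 point per mouse colored by treatment and sex. Per1 and Cry2 climb with the slope in both treatments, Nr1d2 declines in PBS mice (r = -0.682), and Dbp shows no trend in PBS mice (r = 0.001).

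Library names came in 2 forms, the more common one borne by 15 libraries (10 PBS, 5 HsTX1[R14A]) and the other by 6 libraries (2 PBS, 4 HsTX1[R14A]). Within the 15 alone, log2 fold changes were 0.76 for Per1, 0.86 for Per2, 0.48 for Per3 and 0.50 for Cry2, with edgeR adjusted p-values of 0.105, 0.0646, 0.134 and 0.0785. Within the 6 they were 0.66, 1.26, 0.82 and 0.29, with edgeR adjusted p-values of 0.855. The direction was thus the same in both forms for these 4 genes, and no gene of any kind passed in either. What the name forms stand for is not given in the sources used here.

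Treated and PBS mice were next compared within each sex. In females, all 3 HsTX1[R14A] mice were above all 6 PBS mice for 6 of the 10 clock genes, where 9.14% of all genes did so, and below all of them for 0, where 7.44% did. Per1 measured 57.2, 72.0 and 94.1 CPM in the treated females and at most 53.3 CPM in PBS females. For Nr1d1 the treated females had 64.3, 67.8 and 77.1 CPM and PBS females at most 50.5 CPM. Dbp separated the groups by a narrow margin, with 52.5, 71.8 and 72.3 CPM against at most 52.2 CPM. The length slope separated these groups in the same way: it was 0.163 to 0.234 in the 3 treated females and at most 0.147 in PBS females. With the slope as covariate, the log2 fold changes in females were 0.17 for Per1, 0.30 for Per2, 0.27 for Per3, 0.07 for Cry2, 0.44 for Dbp and 0.02 for Nr1d1, none called by edgeR. In males, no clock gene separated the 6 treated from the 6 PBS mice, where 0.472% of all genes did so upward and 0.650% downward.

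No gene, clock gene or other, had an edgeR adjusted p of at most 0.05 within females or within males, although 4539 and 3913 genes had an unadjusted p under 0.05. DESeq2 called 145 genes in females and 212 in males, 1 of the latter a clock gene. The log2 fold changes in females and males were close for Per2 (0.94 and 1.00), Cry2 (0.55 and 0.45) and Per1 (1.02 and 0.74). They stood further apart for Per3 (0.79 and 0.36), Nr1d1 (0.83 and 0.29) and Dbp (0.52 and 0.00). Cry1 (-0.09 and 0.32) and Arntl (-0.17 and 0.27) had opposite signs. Red blood cell genes also parted by sex, with median log2 fold changes of 1.71 in females and -0.45 in males, none called, and their part was not tested. Cerebellar markers parted the other way, with medians of -0.83 in females and 1.25 in males. Among treated males, their summed level was 908.9 CPM in male 74 alone. It was 221.8 to 295.4 CPM in the other treated males and 231.0 to 319.5 CPM in PBS males, so these overlapped. All 8 cerebellar markers had a negative interaction, none was called, and their part was not tested either. The interaction term gave unadjusted p-values of 0.0199 for Cry1, 0.0208 for Dbp and 0.0633 for Arntl, and no gene passed after adjustment (edgeR adjusted p = 1 for each), where 270 genes had an unadjusted p under 0.05 and DESeq2 also called 0 genes. In PBS mice alone, no clock gene passed between females and males, where 0.0429% of genes did, 0.0123% higher and 0.0307% lower in females. The largest difference was in Per2, at 24.5 ± 8.29 CPM in females and 14.1 ± 4.005 CPM in males (SD, n = 6 each, log2 difference 0.80, edgeR adjusted p = 0.929).

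With no collection hour at hand, Arntl was set beside genes that peak in the opposite phase. The log2 CPM of Dbp exceeded that of Arntl by 0.86 ± 0.44 in PBS (SD, n = 12, range 0.08 to 1.67) and by 0.94 ± 0.42 in HsTX1[R14A] mice (SD, n = 9, range 0.32 to 1.56). The means differed by less than either spread, and the ranges nearly coincided. By sex, the excess was 1.38 ± 0.17 in treated females (n = 3) and 0.71 ± 0.37 in PBS females (n = 6), against 0.72 ± 0.31 in treated and 1.00 ± 0.48 in PBS males (n = 6 each). Dbp exceeded Nfil3, a repressor that competes with DBP for D-boxes, by 2.16 ± 0.37 in PBS and 2.34 ± 0.53 in HsTX1[R14A] mice. By sex, that excess was 2.80 ± 0.48 in treated and 2.03 ± 0.24 in PBS females. In males it was 2.11 ± 0.40 in treated and 2.30 ± 0.45 in PBS mice. Nr1d1 exceeded Arntl by 0.59 ± 0.52 in PBS and 0.99 ± 0.57 in HsTX1[R14A] mice, but by sex it was 1.48 ± 0.02 in treated and 0.36 ± 0.48 in PBS females against 0.74 ± 0.54 in treated and 0.82 ± 0.49 in PBS males. Per2 lay 0.57 ± 0.57 below Arntl in PBS mice on average and 0.17 ± 0.67 above it in treated mice. By sex, Per2 minus Arntl was 0.90 ± 0.20 in treated and -0.26 ± 0.41 in PBS females. In males it was -0.20 ± 0.48 in treated and -0.88 ± 0.55 in PBS mice. In treated mice, Nr1d1 and Per2 followed the length slope (r = 0.933 and 0.912) and Arntl did not (0.076). The slope was not removed from these differences, and its part was not tested. These differences are descriptions, since the members were chosen with results of these data known, and collection time itself was not tested.

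How the clock genes varied together between mice was measured for all 45 pairs, with females and males pooled and sex not removed. In the 12 PBS mice, 11 pairs had an adjusted p of at most 0.05 (Pearson r, permutation test with 100000 resamples, two-sided, Benjamini-Hochberg over 45 pairs), 9 positive and 2 negative. The closest pair was Per1 and Cry2, with r = 0.945 (p = 2e-05, adjusted p = 0.0009) and rho = 0.965 (p = 2e-05, adjusted p = 0.0009), and with r = 0.891 without the 2 mice farthest from the median of Per1. Within the 10 PBS mice of the more common name form, r was 0.942. The 2 negative pairs both held Nr1d2: with Per1 at r = -0.757 (permutation p = 0.00456, adjusted p = 0.0231) and rho = -0.825 (p = 0.00167, adjusted p = 0.0235), and with Cry2 at r = -0.707 (permutation p = 0.00641, adjusted p = 0.0288) and rho = -0.846 (p = 0.0011, adjusted p = 0.0235). Without the mice farthest from the median, r was -0.794 and -0.870. In the common name form, Per1 and Nr1d2 had r = -0.721 and Cry2 and Nr1d2 r = -0.648, and neither passed (permutation adjusted p = 0.0954 and 0.151).

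Arntl and Dbp, which peak in opposite phases in rhythmic tissue, had a negative correlation in PBS mice that did not pass (r = -0.480, permutation p = 0.115, adjusted p = 0.250, rho = -0.448, p = 0.149, adjusted p = 0.335, n = 12). Without PBS female 103, r was -0.755 (permutation adjusted p = 0.0420). Arntl and Nr1d1, its repressor, were positively correlated at r = 0.507 without passing (permutation p = 0.0841, adjusted p = 0.205), and without the 2 libraries of lowest slope r was -0.194. Without PBS male 83, r of Arntl and Nr1d1 was instead 0.797 and passed (permutation adjusted p = 0.0235). Per1 and Arntl (r = 0.751) and Arntl and Clock (r = 0.766) also passed without that mouse (permutation adjusted p = 0.0226 and 0.0205). The paralogs Nr1d1 and Nr1d2 had r = -0.468 (permutation p = 0.117, adjusted p = 0.250).

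In the 9 HsTX1[R14A] mice, 13 pairs had an adjusted p of at most 0.05 in the exact permutation test, all positive. Per2 and Cry2 were closest (r = 0.951, exact permutation p = 1.65e-05, adjusted p = 0.000744, rho = 0.983, p = 4.96e-05, adjusted p = 0.00223), and r was 0.983 without the 2 mice farthest from the median of Per2. With the trend on length and GC content removed, r of this pair was 0.580. Tests with that trend removed or with mice left out were run for the PBS pairs only, so how far the treated pairs depend on either was not tested. Dbp, which followed no other clock gene at the threshold in PBS mice, correlated with Per2 (r = 0.798, exact permutation p = 0.0105, adjusted p = 0.0394, rho = 0.833, p = 0.00827, adjusted p = 0.0372) and Per3 (r = 0.854, exact permutation p = 0.00403, adjusted p = 0.0207, rho = 0.767, p = 0.0214, adjusted p = 0.0688). With the sexes pooled, a difference between the 3 treated females and the 6 treated males can enter these correlations, and its part was not tested. The difference between treatments in any of these correlations was not tested. All 11 PBS pairs joined genes that also followed the length slope. With the trend on length and GC content removed no pair passed in PBS mice, where r was 0.648 for Per1 and Cry2 and -0.766 for Per1 and Nr1d2. Without PBS male 90, 1 pair passed, without PBS female 105 or female 84, 7 each, and without both PBS female 103 and PBS male 90, 2 pairs.

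**Figure D4:**
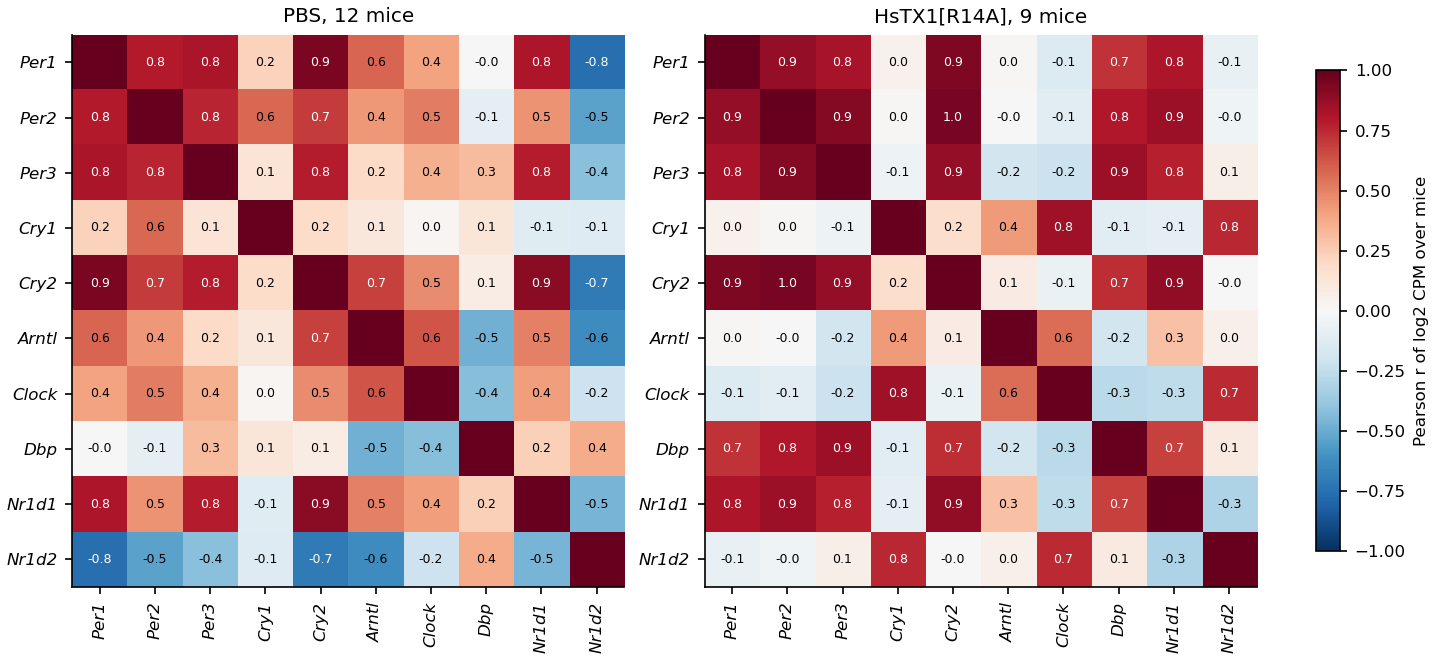
Pearson r of log2 CPM for every pair of clock genes over the 12 PBS mice (left) and the 9 HsTX1[R14A] mice (right), on a color scale from -1 (blue) to 1 (red) with r printed in each cell. Per1, Per2, Per3, Cry2 and Nr1d1 form a red block in both panels, and Nr1d2 is dark blue against Per1 and Cry2 in PBS mice (r = -0.757 and -0.707) and near white in treated mice.

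The genes most like Dbp and Arntl were ranked among 13286 genes over the 21 mice, after sex and treatment were removed from log2 CPM, and are given as descriptions. The closest to Dbp was Ciart (r = 0.681), another E-box target that represses the ARNTL and CLOCK pair. It was followed by Pot1b (0.647), Grb7 (0.627), Peli2 (0.617) and Tmem254b (0.608). The most opposite were the chaperone Hsp90aa1 (-0.793), Uba6 (-0.744), Nfil3 (-0.735), the repressor that competes with DBP for D-boxes, Ahsa1 (-0.710), a co-chaperone of HSP90, and Ift81 (-0.703). With the trend on length and GC content removed, Nfil3 was again among the 5 most opposite (r = -0.782) and Nr1d2 ranked 2 among those most like Dbp (r = 0.658). For Arntl, the closest were Cdh10 (0.902), Slitrk5 (0.899), Lrfn5 (0.880), Mapk10 (0.877) and Sowahb (0.865), the first 4 of them neuronal genes. The most opposite were Rab13 (-0.821), Mgp (-0.819), Tax1bp3 (-0.813), Gpx8 (-0.810) and Rcn3 (-0.808). No clock gene stood among the 5 on either side for Arntl. With the trend removed, Lrfn5 alone of these 10 genes was again among the 5 on its side, and Ciart was no longer among the 5 most like Dbp.

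The wider clock was read from 22 partners and regulators, all of them measured. In HsTX1[R14A]-treated mice 7 of these rose and 0 fell. Of all genes, 15.5% rose, 16.1% fell and 31.6% were called in either direction. The share of the 22 called in either direction was thus near that of all genes. The median log2 fold change of the 22 was 0.19. Of the paralogs and loop partners, Npas2, which can stand in for Clock, had 0.28 (edgeR adjusted p = 0.277) and Arntl2 -0.12 (0.343). Rora and Rorb, activators that oppose the REV-ERBs at Arntl, had log2 fold changes of -0.03 and 0.05, neither called.

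Among repressors and outputs, Bhlhe40 and Bhlhe41 (DEC1 and DEC2, which bind E-boxes) rose by 0.49 and 0.31 on the log2 scale (standard errors 0.16 and 0.10, edgeR adjusted p = 0.0272 and 0.0254). Ciart rose from 5.03 ± 0.650 to 6.34 ± 1.28 CPM (SD, n = 12 and 9), a log2 fold change of 0.34 (standard error 0.11, edgeR adjusted p = 0.0248). Tef, a relative of DBP, rose by 0.28 (standard error 0.07, edgeR adjusted p = 0.0180) and was above the PBS median in 9 of 9 treated mice. Hlf, the other relative, had 0.25 and was not called (edgeR adjusted p = 0.0742), and Nfil3, their opponent, had 0.01 (0.972). Cipc (0.08), Usp2 (0.23), Timeless (0.16), Nono (0.14) and Wee1 (0.22), further partners or targets, were not called either.

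Among kinases and ubiquitin ligases tied to turnover of clock proteins, Csnk1d, the casein kinase that marks PER for decay, rose by 0.33 (standard error 0.09, edgeR adjusted p = 0.0198), Gsk3b by 0.33 (0.0192) and Btrc, the PER ligase, by 0.38 (0.0170). Csnk1e (0.14), Csnk2a1 (0.06) and Fbxw11 (0.15, edgeR adjusted p = 0.0502) did not pass. Fbxl21, a ubiquitin ligase component, had 0.01. Without both PBS female 103 and PBS male 90, Ciart lost the threshold (edgeR adjusted p = 0.0545). Bhlhe40 lost it without HsTX1[R14A] female 98 (edgeR adjusted p = 0.0635), HsTX1[R14A] male 81 (0.0533) or PBS male 90 (0.0534), Bhlhe41 without HsTX1[R14A] female 71 (0.0545) or PBS male 90 (0.0504), and Ciart without HsTX1[R14A] female 98 (0.0653). With the length slope as covariate none of the 7 was called.

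**Figure D5:**
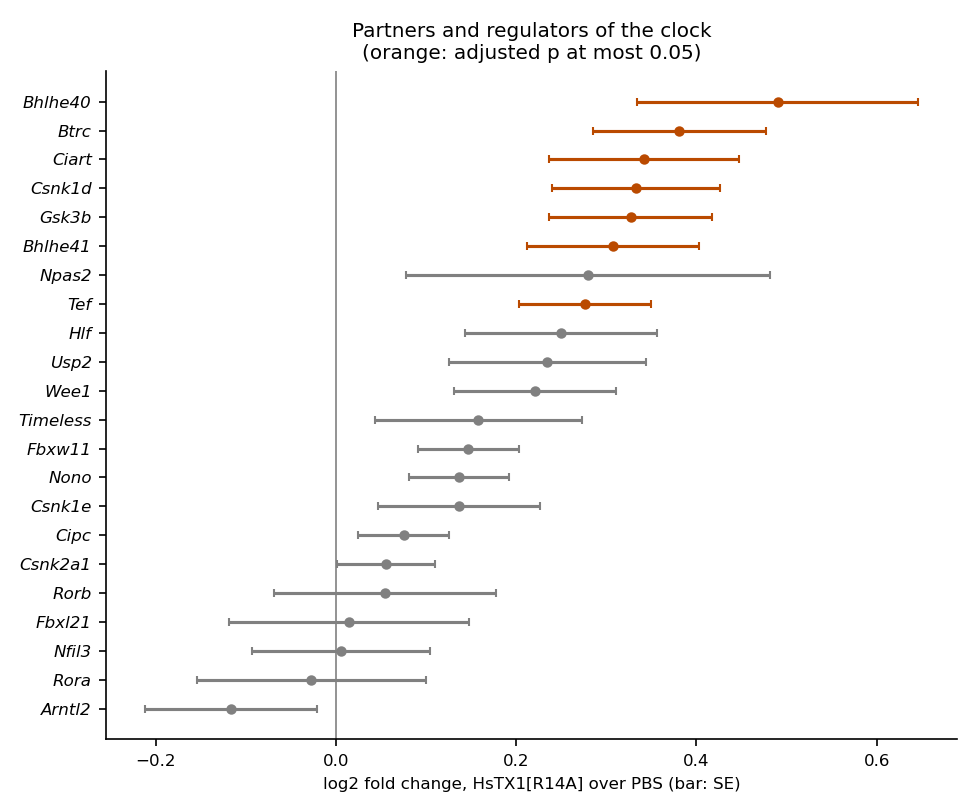
Log2 fold change of the 22 clock partners and regulators, HsTX1[R14A] over PBS (x axis), with bars of 1 standard error, sorted by size, and with genes of adjusted p at most 0.05 in orange (edgeR). The 7 that rose span 0.28 to 0.49.

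Genes of the suprachiasmatic nucleus, the hypothalamic pacemaker, were read next. Of 10 listed genes 9 were tested, and 1 fell, a share no larger than the 16.1% of all genes that fell. Vip, its main light-recipient neuropeptide, which is also made by cortical interneurons, went from 39.1 ± 11.5 to 29.7 ± 10.4 CPM (SD, n = 12 and 9, log2 fold change -0.49, edgeR adjusted p = 0.0412), a call lost without any 1 of 10 mice. Prokr2 (0.46) and Lhx1 (1.36) were not called, and Lhx1, below 5 CPM in every mouse, was above the PBS median in only 3 of 9 treated mice. The summed level of the 9 was 52.7 to 97.4 CPM in PBS and 50.1 to 91.1 CPM in HsTX1[R14A] mice, so the groups overlapped.

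Genes that respond to conditions known to alter Per expression were also read. All 12 immediate early genes, markers of recent neuronal activity, had log2 fold changes above 0, with a median of 0.67, where 48.6% of all genes did, and 6 rose, where 15.5% of all genes rose. Fos rose by 0.88, Egr2 by 0.98 and Junb by 0.54 (edgeR adjusted p = 0.0170, 0.0204 and 0.0238). Junb lost the threshold without HsTX1[R14A] female 98 (edgeR adjusted p = 0.0539). Their summed level was 186 to 828 CPM in PBS and 459 to 1237 CPM in HsTX1[R14A] mice, lowest in PBS female 103 and PBS male 90, the mice lowest in Per1. These mice also had the libraries of lowest length slope, at -0.384 and -0.3375. Of 9 genes responsive to heat or cold 5 rose and 2 fell, where 15.5% and 16.1% of all genes did. Heat shock genes rose, Hspa1b by 1.00 and Hspa1a by 0.88 (edgeR adjusted p = 0.0145 and 0.0156), whereas the cold-inducible Rbm3 fell by 0.51 (0.0151) and lay below the PBS median in 9 of 9 treated mice. No glucocorticoid-responsive gene of 12 was called by edgeR, where 1 had an unadjusted p under 0.05, Nfkbia (log2 fold change -0.25, edgeR adjusted p = 0.0563, DESeq2 adjusted p = 0.0442). Sult1a1 had -0.40 and Zbtb16, a gene that rises with corticosterone, 0.43 (edgeR adjusted p = 0.109 and 0.119). With the length slope in the model, edgeR called none of the genes named in this paragraph. The part of neuronal activity, temperature or stress in the clock gene differences was not tested.

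Markers of the cell types in brain were read beside the clock genes, and their part was not tested. Over all genes, 15.5% rose and 16.1% fell, so that 1 of 8 is not above that background. Of 8 markers in each list, 1 of neurons rose (Syt1, 0.31), 3 of astrocytes fell (Gfap, -0.59, among them), 4 of oligodendrocytes fell (Opalin, -0.99), 3 of microglia fell (P2ry12, -0.65) and 1 of endothelium rose (Flt1, 0.64), with edgeR adjusted p-values of 0.0349, 0.0312, 0.0145, 0.0151 and 0.0191 for the genes named. Of the astrocyte markers 3 had log2 fold changes above 0, and the median of the 8 was -0.05. The call of Syt1 was lost without any 1 of 6 mice and that of Gfap without any 1 of 5. Of the choroid plexus, cerebellar and red blood cell lists no gene was called by edgeR (Otx2 -0.67, Cbln1 1.03 and Hbb-bs 0.63 had the smallest p-values, edgeR adjusted p = 0.0765, 0.0773 and 0.276), where 1, 3 and 0 of them had an unadjusted p under 0.05. DESeq2 called Otx2 (adjusted p = 0.0475) and not Cbln1 (0.0536) or Hbb-bs (0.266). Oligodendrocyte markers summed to 4396 to 6728 CPM in PBS and 3315 to 4907 CPM in HsTX1[R14A] mice. For microglia the sums were 395 to 581 and 332 to 498 CPM, for astrocytes 2951 to 4882 and 3159 to 4942 CPM, and for neurons 5127 to 7882 and 6253 to 9231 CPM. Endothelial sums were 73.2 to 136 and 87.3 to 153 CPM, choroid plexus sums 75.9 to 1154 and 62.9 to 867 CPM, and red blood cell sums 5.82 to 157 and 15.1 to 87.6 CPM. No marker in these lists was at 0 counts in every mouse.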

How the data were processed

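Brain RNA of 21 SAMP8 mice was sequenced by the authors, who aligned reads to GRCm38 with STAR and quantified genes with Salmon. The authors deposited estimated counts per gene, not normalized, for 16318 genes, of which 90.496% lay within 0.01 of a whole number, and they were rounded here. The deposited table also holds the authors' fold change, p-value and FDR, which were not used, nor were 53 further per-sample columns (37 of CPM and 16 of counts). Groups and sexes came from the sample labels. The 10 clock genes and all gene lists were chosen with earlier results of these data known, and all 10 members, all 22 partners, and up to 3 genes of smallest p per other list are named, as are the 5 genes most like and most opposite to Dbp and Arntl. A further 2 genes of the partner list are not reported here and enter none of its counts.

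The filter on low counts, filterByExpr, left 16303 genes. Library totals were TMM-scaled, and treatment was tested beside sex by the quasi-likelihood F-test of edgeR 4.0.16 in R 4.3.3 (functions glmQLFit, then glmQLFTest). The contrasts within sexes, between sexes and the interaction came from 1 model of the 4 groups. The Benjamini-Hochberg adjustment ran over all tested genes, with a threshold of 0.05. The standard error is the log2 fold change divided by the square root of F. Log2 CPM carries a prior count of 2. The edgeR p-values set a difference between groups against the spread between mice, with 1 library per mouse. Transcript length and GC content are those of the longest transcript in GENCODE for GRCm38 (found for 16239 genes, 99.5%). In the length slope, log2 CPM centered per gene was regressed on log2 length. Libraries within a group were compared in 48 pairs, and their lowest mean chi-square per gene was 7.58, so none was counted as a repeat of another. The procedure was tested on simulated data, with counts drawn independently for each gene. In the tests of treatment these data held no length slope, so they do not cover calls that move with the slope. Alternatives were limma 3.58.1 with voom, DESeq2 1.42.0, RLE scaling, other filters on low counts, no sex term, name form, quality weights, 1 surrogate variable (sva 3.50.0), the length slope, a loess trend on length and GC content (span 0.5) removed and then tested with limma, the name forms taken singly, and every mouse omitted in turn. Leaving out both libraries of lowest length slope was chosen after seeing the data. Counting precision was not limiting for the 10 clock genes, whose lowest count in any mouse was 153. Of all genes, 14228 reached 10 counts in each of the 21 mice, and values of genes below that are less certain.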

Additional observations from a re-analysis of the deposited data

Results flagged for a closer look

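Among the 6 HsTX1[R14A] males, Arntl in male 81 measured 40.8 CPM and the next highest male 30.8 CPM. The gap was 0.724 of the range of the group, above Dixon's critical value of 0.625 for 6 mice. It was the 1 outlier among 30 groups tested, and chance gives about 1 in 20. The same mouse had the highest Nr1d1 level of all 21.

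Arntl was called in neither sex, but its log2 fold changes had opposite signs. All 3 HsTX1[R14A] females lay below the median of PBS females and all 6 HsTX1[R14A] males above the median of PBS males, and the log2 fold change in females minus that in males was -0.44. The test of this difference, the interaction term of edgeR, gave an unadjusted p of 0.0633 and did not pass after adjustment.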

How the results depend on the processing

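All values are log2 fold changes unless named otherwise. Of all genes, 5144 were called, 2984 with no sex term, 1999 with the name form as covariate, 1104 with 1 surrogate variable, 2134 (60.5% of them higher, against 49.1%) with the length and GC trend removed, and 2887 without the 2 libraries of lowest length slope, a setting chosen after seeing the data. With the length slope as covariate and within the 15 or the 6 mice of a name form, edgeR called 0 genes and 0 clock genes, with 1865, 5797 and 532 genes at an unadjusted p under 0.05. DESeq2 called 145 genes in females, 212 in males (1 a clock gene) and 12 between sexes in PBS mice. Of pairs in PBS mice, 0 passed with the trend removed and 2 without those 2 libraries. Signs turned as follows, and the cause was not tested. With 1 surrogate variable: Arntl -0.030, Clock -0.018, Nr1d1 -0.015, Npas2 -0.095, Rorb -0.086. With at least 10 counts in every mouse: Clock -0.00088, Nfil3 -0.0018. With the trend removed: Clock -0.12, Arntl2 0.050, Rorb -0.074, Csnk1e -0.045, Cipc -0.018, Timeless -0.13, and r of Cry1 and Cry2 -0.0824. With the length slope: Arntl -0.10, Clock -0.033, Nr1d1 -0.26, Npas2 -0.29, Rorb -0.15, Csnk1e -0.024, Usp2 -0.027, Timeless -0.067, Zbtb16 -0.20, in females Nr1d2 0.091, in males Per3 -0.015, Dbp -0.057 and Nr1d1 -0.43, between sexes in PBS mice Per3 -0.074 and Cry2 -0.063, and the interaction of Cry2 -0.018. With the name form: Clock -0.019, Rora 0.018, Rorb -0.023, Nfil3 -0.024. By limma with voom: Nfil3 -0.0048, Dbp in males -0.0030, the interaction of Per2 0.015. In the 15 mice: Clock -0.058, Rorb -0.12, Nfil3 -0.029. In the 6 mice: Arntl -0.025, Nr1d2 0.16, Arntl2 0.18, Rora 0.062, Nfil3 -0.057, Fbxl21 -0.16, Fbxw11 -0.032, Timeless -0.14, Lhx1 -1.45, Otx2 0.087, Cbln1 -0.18. With quality weights: Clock -0.016, Rorb -0.013, Nfil3 -0.057. Without the 2 libraries: Clock -0.019, Rorb -0.0011, Nfil3 -0.020, and r of Arntl and Nr1d1 -0.194. Leaving out each mouse gave 2289 (without PBS male 90) to 6614 (without HsTX1[R14A] male 93) genes called, 3 to 5 clock genes and 1 (without PBS male 90) to 15 pairs, and these ranges: Clock -0.017 to 0.024, interaction of Cry2 -0.044 to 0.18, Dbp in males -0.081 to 0.070, Fbxl21 -0.051 to 0.072, Nfil3 -0.041 to 0.062, interaction of Per2 -0.21 to 0.12, Per3 between sexes in PBS mice -0.010 to 0.28, Rora -0.081 to 0.051, Rorb -0.0043 to 0.11. That only 3 treated females were sequenced limits the comparisons within sexes. The methods of the study state that mice were randomized to treatment within cages, but the labels used here do not give the cage. Cage could therefore not be used as a block, and any part of it was not tested. The mouse numbers in the labels do not repeat across groups, so no pairing by mouse was possible either.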
